A study of Danio rerio with 2 samples.

Results

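The Rab GTPases were followed across the cell types of zebrafish embryos at 24 hours post fertilization (hpf). Every row of the gene lists whose symbol begins with rab and a digit directly after it was taken, which gave 79 members among 25107 genes. Of these, 67 are Rab GTPases and 12 are regulators or adaptors named after a Rab (rab11fip1a, rab11fip1b, rab11fip2, rab11fip3, rab11fip4a, rab11fip4b, rab11fip5a, rab3gap1, rab3gap2, rab3il1, rab3ip and rab5if). Cells carrying the Tg(mitfa:GFP) transgene, a green fluorescent protein (GFP) reporter under the mitfa promoter, were sorted into a GFP low and a GFP high fraction, and each fraction was sequenced as 1 droplet library, so both groups share the genotype and the age. Mitfa is the transcription factor that specifies melanophores, the black pigment cells of fish, and xanthophores are the yellow ones. The sort took cells by the level of the reporter, and neurons, epidermis and muscle were also found in both fractions.

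Rab GTPases are small switches that mark membranes. In the GTP-bound form each Rab recruits effectors such as motors and tethers, exchange factors load the GTP, and activating proteins end the signal. Melanosomes, the organelles that hold melanin, are related to lysosomes, and in mammals Rab32 and Rab38 bring the melanin enzymes to them while Rab27a couples them to actin through melanophilin and myosin Va. In neurons Rab3 proteins sit on synaptic vesicles.

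The low library held 2361 cells of the deposited cell table with a median of 5732 unique molecular identifiers (UMIs, counts of captured transcripts), and the high library 2374 cells with a median of 6858.5. The libraries shared 1 cell barcode. Cluster numbers were taken from that table, and 4 clusters were compared by name: cluster 6 (melanophore-like, 22 low and 197 high cells), cluster 3 (xanthophore-like, 78 and 324 cells), cluster 4 (neuron-like, 197 and 148 cells) and cluster 7 (epidermis-like, 129 and 76 cells). Each of them had the highest summed level of its own marker list in both libraries. Cluster 7 also held the highest level of the blood list, 1701 CPM in the low and 61.8 CPM in the high library, and of the mesenchyme list it held 994 and 1471 CPM. CPM is the number of UMIs of a gene or list per 1000000 UMIs of all genes, in the cells of a cluster and library.

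Levels are given as CPM. A ratio sets the CPM of a cluster against the mean CPM of the other 8 clusters among clusters 0 to 8, and a member was called higher or lower in a cluster when the ratio was at least 2 or at most 0.5 in both libraries. Calls were limited to genes with at least 50 UMIs in all, which 66 of the 79 members had. With 1 library per fraction there was no replicate spread and no test. Intervals are 95% intervals of counting error alone, and since the clusters were made from the same transcripts, cluster levels are descriptions.

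The Rab GTPases together took the largest part of the transcripts in the pigment cell clusters. Their summed level in cluster 6 was 4860 CPM (interval 4584 to 5149) in the low and 5010 CPM (4916 to 5106) in the high library. In cluster 3 it was 3784 and 3827 CPM, in the neuron-like cluster 3121 and 3177 CPM, and in cluster 1 2210 and 3220 CPM. The lowest sums were those of cluster 8, where muscle markers were highest, at 923 and 979 CPM. A median of 18 different Rab GTPases was detected per cell in cluster 6 in either library, against 14 in cluster 3 and 7 to 8 in cluster 4, but the cells of clusters 6 and 3 were also deeper, with medians of 10560 and 10960 UMIs in cluster 6 and 3988 and 4179 in cluster 4.

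Members called higher in cluster 6 or 3 are named the pigment cell set here, and those called higher in cluster 4 the neuron set. Higher calls in cluster 7 numbered 4 of 66 (6.06%, against 7.59% of all genes), and 1 of these, rab11al, was also called higher in cluster 3. A further 18 members had no call in the 4 named clusters. The same cluster was highest in both libraries for 47 of the 66 members. It was cluster 4 for 22 of them, cluster 6 for 15, cluster 7 for 4 and cluster 3 for 3. No matching counts over all genes are given here, so those of the 18 members and of the highest cluster describe the members only.

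**Figure D1:**
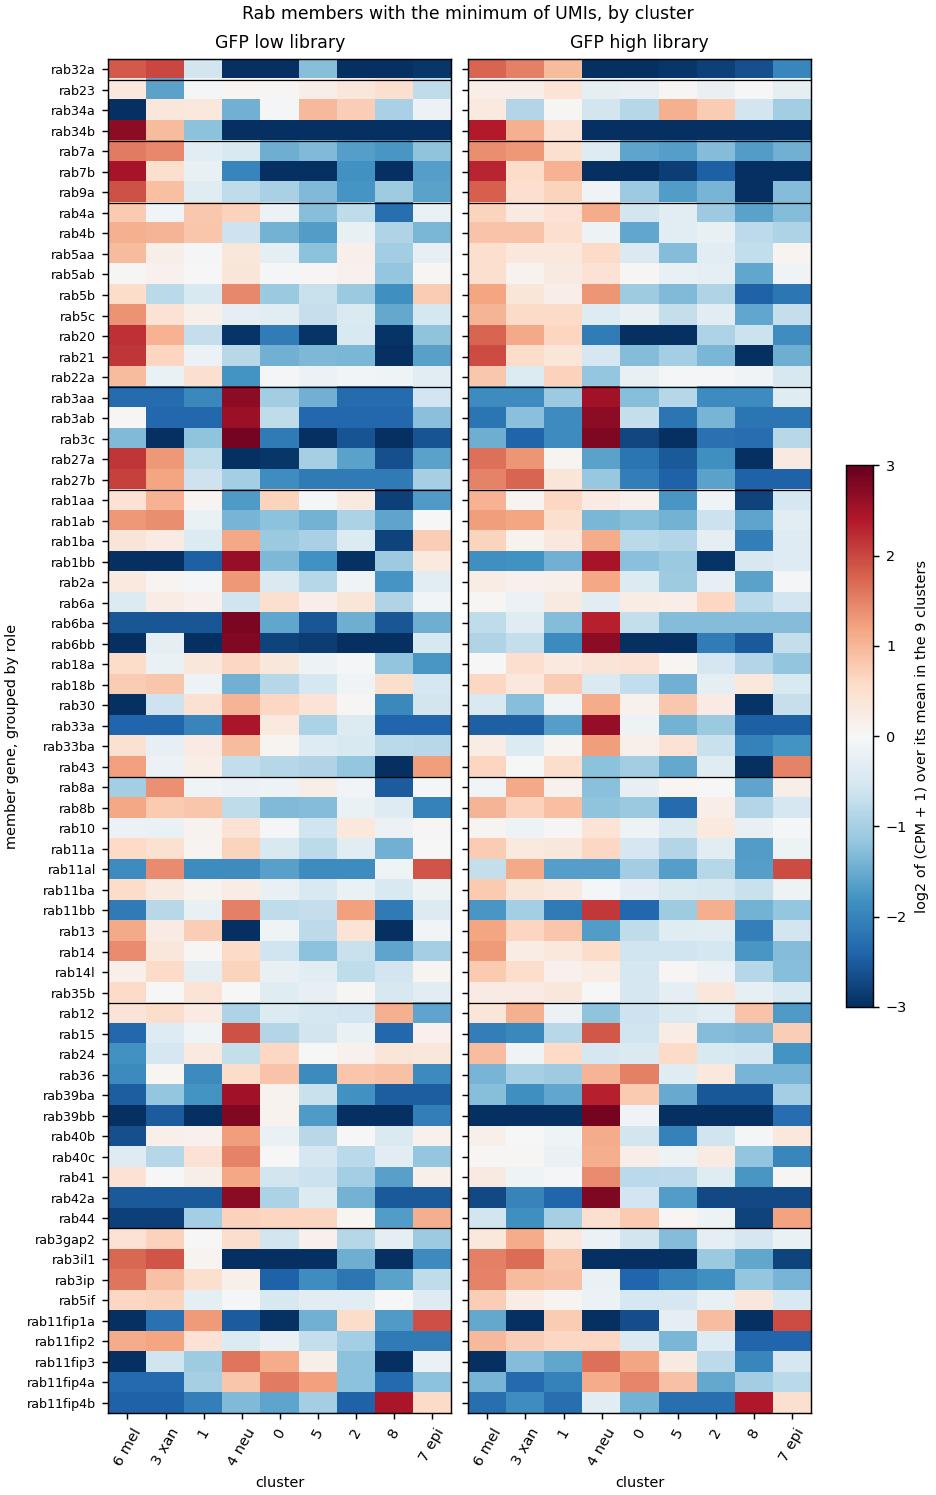
Each row is 1 of the 66 members with at least 50 UMIs, grouped by role, and each column 1 of the 9 clusters in the GFP low (left) and GFP high (right) library; mel, xan, neu and epi stand for melanophore-like, xanthophore-like, neuron-like and epidermis-like. Colour is log2 of CPM plus 1 over its mean in the 9 clusters of that library. No member was called higher in both cluster 4 and cluster 6, or in both cluster 4 and cluster 3 (0.374% and 0.252% of all genes were). Some members were above their mean in clusters 6 and 4 alike, such as rab11a at 173 and 216 CPM and at 180 and 194 CPM.

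In the melanophore-like cluster 19 of the 66 members were called higher, or 28.8%, where 9.96% of all 12295 genes with the same minimum were. One member, rab3c of synaptic vesicles, was called lower, against 10.9% of all genes. The lower calls are limited by the 22 low cells, in which the floor of 3 counts is 12.65 CPM, and in the high library alone 17 members were at 0.5 or less, where 34% of all genes were. With members at 0 UMIs in cluster 6 ranked lowest (21 of the 66 for GFP low and 7 for GFP high), the median log2 ratio was 0.49 for the low library and 0.42 for the high one, beside -0.62 and -0.39 over all genes. By role, the higher members were all 3 late endosome Rabs with the minimum, 5 of 9 early endosome Rabs, 2 of 5 Rabs of regulated secretion, 3 of 11 Rabs of recycling and polarised transport, 1 of 14 of the endoplasmic reticulum (ER) and Golgi, 1 of 3 ciliary Rabs, rab32a as the single member of its role with the minimum, and 3 partners that are not GTPases.

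By its ratio to the other clusters, rab34b led the melanophore-like list. Its mammalian counterpart acts in building the primary cilium and in positioning lysosomes. It had 611 CPM in the low and 592 CPM in the high library, 20.4 times (interval 16.4 to 25.3) and 11.1 times (10.2 to 12.0) the mean of the other clusters. In cluster 3 its level was 185 and 239 CPM, and in the neuron-like cluster 1.14 and 2.85 CPM. Rab34a, the paralogue, was not called in the 4 named clusters. It was at 0 UMIs and 11.1 CPM in cluster 6 and highest in cluster 5, where retina markers were highest, at 16.6 and 19.7 CPM. In cluster 2 rab34a was at 13.8 (8.83 to 20.5) and 15.7 CPM (9.71 to 24.0). The intervals of cluster 5, 10.1 to 25.6 and 11.9 to 30.8 CPM, overlapped these. Rab34b was thus highest in cluster 6 in both libraries, while the highest cluster of rab34a was not settled by these counts.

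Rab34b was seen in nearly every melanophore-like cell. A UMI was present in 22 of 22 low cells (exact binomial interval 84.6% to 100%) and in 191 of 197 high cells (93.5% to 98.9%). With cells thinned to 2500 UMIs the shares were 76.65% and 72.4%, against 32.7% and 39.1% in cluster 3. In cluster 0, where neural progenitor markers were abundant and the gene was near 0, the thinned share was 0.292% and 0.741%, at median depths of 4559 and 4447 UMIs before thinning.

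Rab32a was shared by both pigment cell clusters. It had 493 and 527 CPM in cluster 6, 5.32 times (4.36 to 6.48) and 4.77 times (4.44 to 5.13) the mean of the others. In cluster 3 it had 552 and 449 CPM, 6.47 times (5.47 to 7.66) and 3.73 times (3.49 to 4.00) the mean of the others. Cluster 3 was above cluster 6 in the low library and below it in the high library. In cluster 4 the level was 1.14 and 11.4 CPM, and in cluster 7 it was 17.4 and 39.3 CPM. At 2500 UMIs per cell a rab32a UMI was expected in 66.4% and 69.3% of cluster 6 cells and in 72.65% and 64.4% of cluster 3 cells, against 2.32% and 3.29% of cluster 0 cells. Unthinned shares were 100% and 96.45% in cluster 6, 94.9% and 92.3% in cluster 3, and 4.00% and 5.48% in cluster 0.

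The other 3 members of that group were scarce. Rab38b had 42 UMIs in all and rab38c 36, both under the minimum, and rab32b had 1 UMI, in cluster 0. Rab38b was at 16.9 and 7.41 CPM in cluster 6, from 4 and 16 UMIs, and at 4.43 and 2.81 CPM in cluster 3. Rab38c was at 8.43 and 5.10 CPM in cluster 6 and 5.91 and 2.81 CPM in cluster 3. Outside clusters 6, 3 and 1 rab38b had no UMI and rab38c 1 in each library, in cluster 0, so what little there was of both lay in the pigment cell clusters and cluster 1. For rab38b the ratio of cluster 6 to cluster 3 was 3.81 (0.644 to 25.98) in the low and 2.64 (1.099 to 6.78) in the high library, so that the depth of the low library could not show a difference.

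The 3 late endosome Rabs with the minimum were called higher in cluster 6. Rab7a, which directs late endosomes to lysosomes, had 278 and 274 CPM there and 258.5 and 254 CPM in cluster 3, while the epidermis-like cluster had 40.5 and 37.5 CPM. Rab7b, whose ID carries the symbol RAB7A in the reference name table, had 97.0 and 104 CPM in cluster 6. This was 14.9 times (9.10 to 24.3) and 10.1 times (8.45 to 12.1) the mean of the others. In cluster 3 rab7b was at 23.6 and 30.9 CPM, so that rab7a was spread over both pigment cell clusters and rab7b was higher in the melanophore-like one.

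Rab9a, which retrieves receptors from late endosomes to the Golgi and is needed for melanosome formation in mouse melanocytes, had 63.2 and 55.6 CPM in cluster 6. These levels were 6.19 times (3.57 to 10.75) and 5.34 times (4.16 to 6.84) the mean of the other clusters. Rab9b had 7 UMIs in all and none in cluster 6.

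Of the early endosome Rabs, rab21, rab20, rab5c, rab4b and rab22a were called higher in cluster 6. Rab20 and rab4b were also called higher in cluster 3, where rab4b was at 16.25 and 15.3 CPM, beside 16.9 and 15.3 CPM in cluster 6. Rab21, which takes integrins into endosomes, had 122 CPM in the low and 129 CPM in the high library, against 42.8 and 48.0 CPM in cluster 3. It was 8.08 times (5.40 to 12.1) and 6.26 times (5.28 to 7.42) the mean of the others. Rab20, which in mammalian macrophages acts in phagosome maturation, had 33.7 and 33.8 CPM in cluster 6 and 14.8 and 22.1 CPM in cluster 3. In cluster 6 this was 10.3 times (4.64 to 22.98) and 5.27 times (3.88 to 7.15) the mean of the others. Rab5c, of early endosome fusion, had 434 and 346 CPM in cluster 6 and 229 and 254 CPM in cluster 3. Its ratios in cluster 6 were 3.17 (2.60 to 3.88) and 2.34 (2.14 to 2.55). Rab5aa and rab5ab were not called in the 4 named clusters, and rab5b was called higher in cluster 4. The calls of rab4b and rab22a rest on 4 and 5 UMIs in the low library, with ratios of 2.64 (0.957 to 7.27) and 2.33 (0.946 to 5.72), both of which include 1. Rab22a was at 21.1 and 19.45 CPM in cluster 6. In cluster 1 rab4b was at 14.3 and 11.8 CPM and rab22a at 14.9 and 17.9 CPM. The intervals of both genes overlapped between clusters 1 and 6 in both libraries.

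Among the Rabs of regulated secretion, rab27a and rab27b were called higher in both pigment cell clusters. Rab27a had 59.0 and 35.7 CPM in cluster 6 and 32.5 and 28.4 CPM in cluster 3. In cluster 6 this was 8.71 times (4.80 to 15.8) and 4.72 times (3.47 to 6.43) the mean of the others. Rab27b, a Rab of secretory granules, was sparse, with 4 and 30 UMIs in cluster 6 (16.9 and 13.9 CPM) and 6 and 54 UMIs in cluster 3 (8.86 and 16.8 CPM). At 2500 UMIs per cell rab27a was expected in 15.2% and 8.27% of cluster 6 cells, and in 0.192% and 0.380% of cluster 0 cells.

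The pigment cell set also held Rabs of general transport. Rab1ab, of ER to Golgi transport, had 809 and 868 CPM in cluster 6 and 861 and 838 CPM in cluster 3, near 3 times the mean of the other clusters in either. Rab14, which moves between early endosomes and the Golgi, had 253 and 228 CPM in cluster 6. Rab13, of tight junctions, had 71.7 and 89.9 CPM in cluster 6, and rab8b, of exocytic transport, 50.6 and 51.0 CPM. Neither was called in cluster 3, where rab13 was at 38.4 and 61.1 CPM and rab8b at 38.4 and 39.9 CPM. In cluster 1 rab13 was at 54.2 and 69.6 CPM and rab8b at 39.9 and 46.6 CPM. Of the partners, rab3il1 and rab3ip were called higher in both pigment cell clusters. Both encode exchange factors that load Rab8 with GTP. Rab3ip had 131 CPM in cluster 6 in either library and 78.3 and 89.2 CPM in cluster 3. In cluster 1 it was at 58.8 and 84.55 CPM, with intervals overlapping those of cluster 3 in both libraries. Rab3il1 had 97.0 and 91.7 CPM in cluster 6 and 109 and 103 CPM in cluster 3. The adaptor rab11fip2 was called with 2 UMIs in cluster 6 of the low library, a ratio of 3.12 (0.737 to 13.2).

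**Figure D2:**
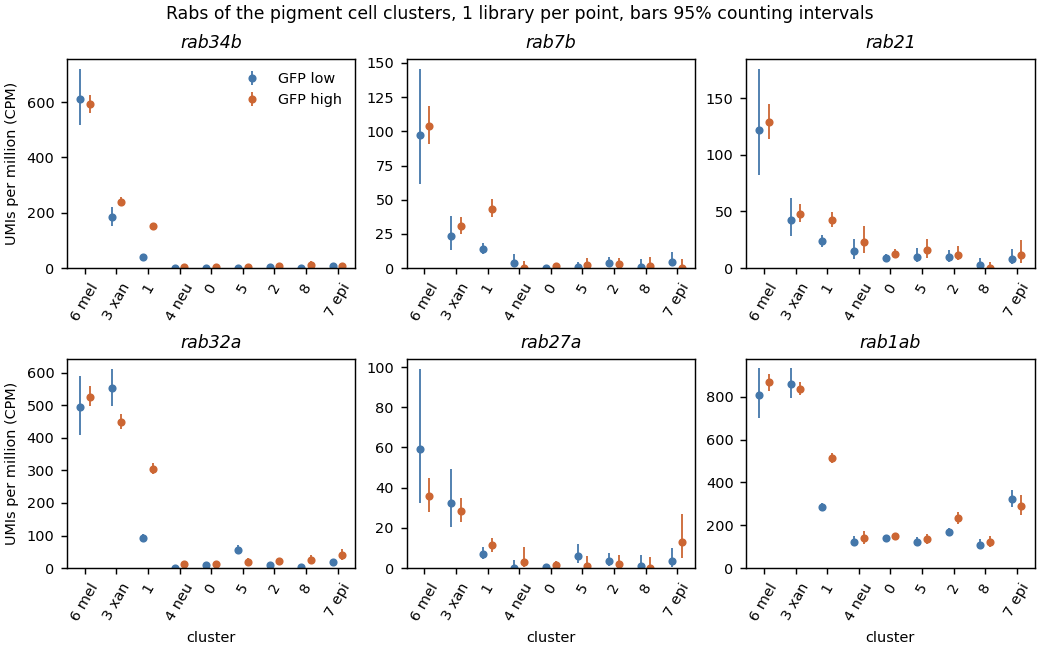
CPM of 6 members (vertical axis, linear) in the 9 clusters of each library (horizontal axis), with exact Poisson 95% intervals of the counts. Rab34b, rab7b and rab21 were highest in cluster 6, at 611 and 592, 97.0 and 104, and 122 and 129 CPM, while rab32a and rab1ab stood at like levels in clusters 6 and 3; in cluster 1 rab34b, rab32a and rab1ab were higher in the GFP high library.

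In the xanthophore-like cluster 13 of the 66 members were called higher (19.7%, against 6.85% of all genes) and 6 lower (17.7% of all genes). Of the 13, 11 were also called higher in cluster 6 (as were 3.06% of all genes in both clusters), which is 84.6% of the xanthophore list and 57.9% of the melanophore list. These 11 were rab1ab, rab4b, rab7a, rab20, rab27a, rab27b, rab32a, rab34b, rab3il1, rab3ip and rab11fip2. Cluster 6 enters the reference of cluster 3, and cluster 3 that of cluster 6, so the shared part depends on the reference. With non-pigment clusters alone as the reference, 19 members were called higher in cluster 3 and 22 in cluster 6. That reference was chosen after seeing the data. Rab8a and rab11al were called in cluster 3 and not in cluster 6. Rab8a, of exocytic transport, had 48.7 and 33.7 CPM, 3.40 times (2.31 to 5.00) and 2.69 times (2.07 to 3.498) the mean of the others. Rab11al had 51 UMIs in all, 8.86 and 5.92 CPM in cluster 3 and 12.7 and 11.2 CPM in cluster 7, and passed the minimum only through these UMIs. The 6 lower members were rab11bb, rab1bb, rab39ba, rab39bb and rab3c, all called higher in the neuron-like cluster, and rab11fip1a, called higher in cluster 7. Without cluster 4 among the reference clusters the count of lower members was 1.

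Melanophore genes were measurable in cluster 3 as well. The melanophore marker list summed to 730 and 1292 CPM there, with 8 and 10 of its 11 genes present, against 14350 and 16150 CPM in cluster 6. Of its genes, mitfa, whose reporter was sorted on, was at 406 and 668 CPM in cluster 3, and at 1699 and 1567 CPM in cluster 6. Pmela was at 48.7 and 222 CPM in cluster 3, and at 2883 and 3299 CPM in cluster 6. Dct was at 0 and 21.2 CPM in cluster 3, and at 3832 and 4478 CPM in cluster 6. The xanthophore list summed to 919 and 1390 CPM in cluster 6, and to 23140 and 29590 CPM in cluster 3. Its gene gch2 alone was at 607 and 1016 CPM in cluster 6. The part of these transcripts in the levels of shared Rabs was not tested.

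Set directly against each other, the melanophore-like cluster was at least 2-fold above the xanthophore-like one in both libraries for 6 of the 66 members (9.09%, against 3.58% of all genes) and at most at 0.5 times its level for 1 (2.8% of all genes). The 6 were rab7b, rab34b, rab21, rab22a, rab9a and rab14. For rab34b the ratio was 3.31 (2.59 to 4.24) in the low and 2.48 (2.26 to 2.71) in the high library, and for rab7b it was 4.103 (2.08 to 8.31) and 3.36 (2.64 to 4.30). For rab21 it was 2.85 (1.65 to 4.95) and 2.68 (2.20 to 3.29). The ratio of rab22a in the low library, 2.38 (0.574 to 9.35), and that of rab9a, 2.04 (0.978 to 4.15), had intervals that include 1. The lower member was rab8a, at 0.173 (0.0201 to 0.676) and 0.413 (0.266 to 0.624). For rab32a it was 0.893 (0.719 to 1.102) and 1.17 (1.09 to 1.27). The ratios of rab1ab, 0.940 (0.794 to 1.11) and 1.04 (0.976 to 1.099), and of rab7a, 1.08 (0.798 to 1.44) and 1.08 (0.967 to 1.20), had intervals within 1.5-fold of 1. Across both libraries the ratios of rab32a, rab7a and rab1ab were between 0.893 and 1.17.

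**Figure D3:**
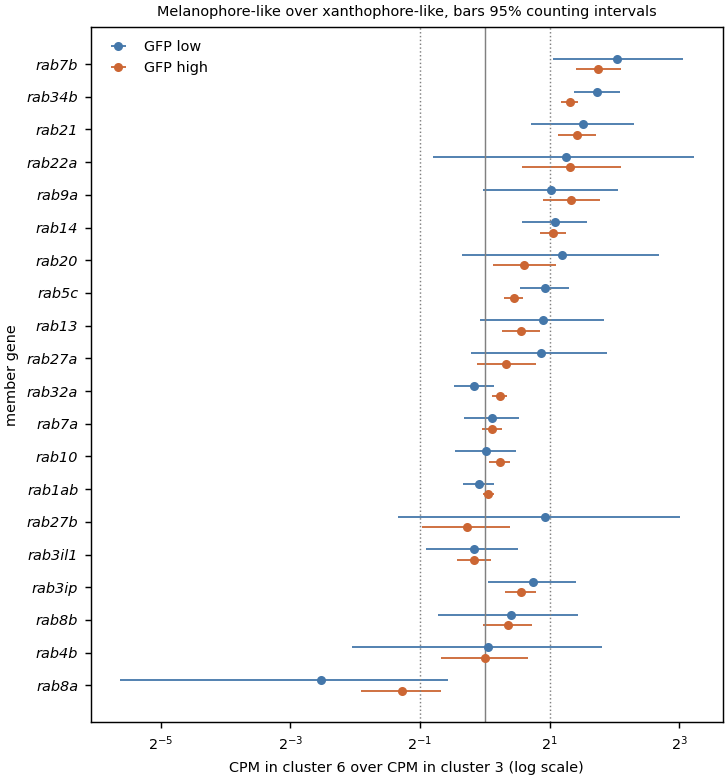
Ratio of CPM in cluster 6 to CPM in cluster 3 (horizontal axis, log scale) for 20 members, 1 point per library, with exact conditional 95% intervals of the counts; the solid line marks 1 and the dotted lines 0.5 and 2. Rab7b, rab34b and rab21 lie above 2 in both libraries, rab32a, rab7a and rab1ab near 1, and rab8a below 0.5.

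The cells of cluster 1 allowed the pigment Rabs to be followed across cells outside clusters 6 and 3. It held 380 low and 435 high cells, with a neural crest marker list at 1883 and 1709 CPM, and was given no cell type name. Its cells were split by their UMIs of 8 melanin genes (dct, pmela, tyrp1a, tyrp1b, tyr, oca2, slc24a5 and slc45a2), a choice made after the cluster values were seen. In the low library 252 cells had 0 of these UMIs, 100 had 1 to 9 and 28 had 10 or more. In the high library the numbers were 86, 173 and 176. Median depths ran from 8048 to 9366 UMIs in the low and from 8381 to 9888 in the high library.

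Rab32a and rab34b were higher in each step of the melanin UMIs in both libraries. Rab32a went from 32.6 CPM (25.3 to 41.2) in cells with 0 melanin UMIs through 143 to 420 CPM (345 to 506) in cells with 10 or more in the low library. In the high library it went from 54.9 (39.8 to 74.0) through 248 to 462 CPM (431 to 494). Rab34b went from 10.4 through 40.0 to 279 CPM in the low and from 12.8 through 67.9 to 281 CPM in the high library. The top bin intervals of rab34b, 218 to 350 CPM in the low and 257 to 306 CPM in the high library, lay below its cluster 6 levels of 611 and 592 CPM.

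Rab7a, rab7b, rab21 and rab1ab were also higher in the highest than in the lowest bin in both libraries. Rab7a went from 57.6 to 191 CPM between the lowest and the highest bin in the low and from 70.3 to 185 CPM in the high library. Rab7b went from 8.50 to 34.4 CPM and from 15.3 to 66.8 CPM, and rab21 from 16.5 to 72.5 CPM and from 19.2 to 66.8 CPM. Rab1ab went from 194 to 695 CPM in the low and from 248 to 691 CPM in the high library. Rab10, a Rab of polarised transport that was not called in the 4 named clusters, stayed between 267 and 294 CPM in the low and between 257 and 273 CPM in the high library. Rab2a, of ER and Golgi transport, was at 268 to 340 CPM and 331 to 358 CPM. Rab27a went from 3.30 to 22.9 CPM and rab9a from 7.08 to 34.4 CPM between these bins in the low library. Both were also higher in the highest than in the lowest bin of the high library. For both genes the intervals of these bins did not overlap in either library. Some other members of the pigment cell set moved less in the low library. There rab8b was at 37.3 CPM in the lowest and 42.0 CPM in the highest bin, with overlapping intervals. Rab13 was at 48.6 and 57.3 CPM and rab3ip at 63.7 and 72.5 CPM, also with overlapping intervals. Rab20 had 1 UMI in the highest bin of the low library (3.82 CPM), and in the high library it was at 3.83 CPM in the lowest and 25.1 CPM in the highest bin.

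**Figure D4:**
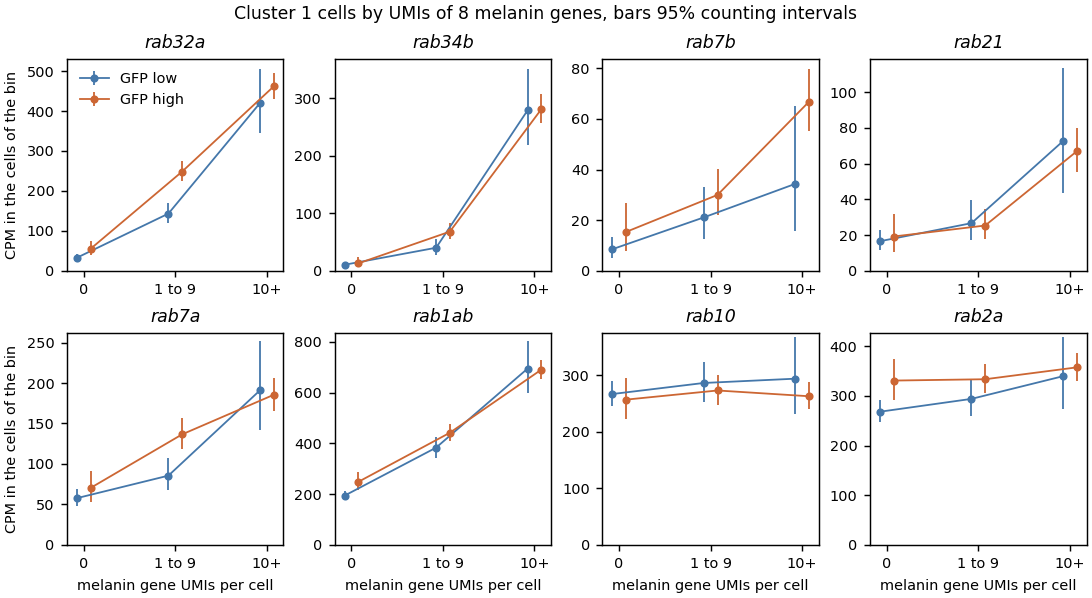
CPM of 8 members (vertical axis, linear) in cluster 1 cells with 0, 1 to 9, or 10 or more UMIs of 8 melanin genes (horizontal axis), 1 line per library, with exact Poisson 95% intervals. Rab32a, rab34b, rab7b, rab21, rab7a and rab1ab were higher in the top bin than in the lowest in both libraries, while rab10 stayed between 257 and 294 CPM.

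Over all cells of a library, 16 of the 66 members were at least 1.5-fold higher in GFP high (24.2%, against 12.9% of all genes) and 13 at least 1.5-fold lower (19.7%, against 13.9%). The largest log2 ratios were those of rab34b at 2.44 (2.29 to 2.59), rab27b at 2.30 (1.59 to 3.09), rab20 at 2.08 (1.61 to 2.58), rab7b at 2.07 (1.76 to 2.39) and rab32a at 1.82 (1.72 to 1.93). Rab32a was at 63.9 CPM in the low and 226 CPM in the high library, and rab34b at 28.4 and 154 CPM. The 2 libraries held different mixes of cells, with 22 and 197 cells in cluster 6, 78 and 324 in cluster 3 and 1001 and 767 in cluster 0. The 13 lower members included rab6bb, rab3ab, rab39bb, rab33a, rab3c, rab3aa and rab6ba of the neuron set, whose cluster had 197 low and 148 high cells. With trimmed mean of M values (TMM) scaling, as with equal weight per cell, the count of lower members was 5.

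The ratios within the pigment cell clusters were smaller for rab34b, rab32a and rab7b. In cluster 6 the log2 ratio, high over low, was -0.05 (-0.29 to 0.21) for rab34b, 0.09 (-0.18 to 0.38) for rab32a and 0.10 (-0.52 to 0.79) for rab7b. For rab5c it was -0.33 (-0.63 to -0.02). In cluster 3 it was -0.30 (-0.47 to -0.13) for rab32a, lower in GFP high, and 0.37 (0.10 to 0.66) for rab34b, and the intervals of rab7b at 0.39 (-0.39 to 1.25), rab27b at 0.93 (-0.29 to 2.43) and rab20 at 0.58 (-0.38 to 1.70) include 0 and are wide. In cluster 1 the ratios stayed large, at 1.70 (1.52 to 1.89) for rab32a, 1.92 (1.65 to 2.20) for rab34b, 1.63 (1.16 to 2.13) for rab7b and 2.08 (1.17 to 3.11) for rab20. There dct moved with them, from 75.3 to 528 CPM. In the cluster 1 cells with no UMI of the 8 melanin genes the log2 ratio was 0.30 (-0.94 to 1.44) for rab34b and 0.75 (0.17 to 1.32) for rab32a, from 69 low and 43 high UMIs. For rab7b it was 0.85 (-0.335 to 1.985) and for rab20 0.44 (-2.19 to 2.66), intervals that include both 0 and their ratios over all of cluster 1. The difference of rab32a in cluster 1 was thus smaller among these cells, and that of rab34b was not detectable at this depth.

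Low levels of pigment genes in the other clusters differed between the libraries, in both directions. Gch2, a xanthophore gene of pteridine synthesis, was at 2.38 CPM in cluster 8 of the low and 439 CPM in cluster 8 of the high library, and at 18.2 and 118 CPM in the neuron-like cluster. In cluster 8 rab32a went from 3.56 to 24.3 CPM and rab34b from 1.19 to 12.9 CPM between the libraries. In cluster 5 rab32a was at 56.4 CPM in the low and 19.7 CPM in the high library, pmela at 139 and 89.2 CPM and dct at 134 and 125.5 CPM. The part of free RNA in these low levels was not tested.

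In the neuron-like cluster 22 of 66 members were called higher (33.3%, against 15.9% of all genes) and 12 lower (17.5% of all genes). Of the higher members, 4 (rab3aa, rab3ab, rab42a and rab6ba) passed the minimum only through the UMIs of that cluster. Among the 62 members with the minimum outside it, 18 were called. The 15.9% of all genes was not limited in this way and is not a match for that count. No member was called higher in both cluster 4 and cluster 6, or in both cluster 4 and cluster 3, but of all genes too only 0.374% and 0.252% were. Of the 12 lower members 10 were among the 19 called higher in cluster 6 (rab13, rab1ab, rab20, rab22a, rab27a, rab27b, rab32a, rab34b, rab3il1 and rab7b). Cluster 6 enters the reference of cluster 4, and no matching share over all genes is given, so this overlap describes the members only.

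The synaptic vesicle Rabs were high in cluster 4. Rab3c had 94.5 and 81.2 CPM there, 57.8 times (27.9 to 120) and 40.6 times (23.2 to 70.9) the mean of the others, and at most 5.62 CPM in the other clusters among 0 to 8 of either library. Rab3aa had 30.8 and 19.95 CPM in cluster 4, with ratios of 50.8 (21.3 to 121) and 38.3 (11.9 to 123). Rab3ab had 29.6 and 28.5 CPM, with ratios of 32.1 (9.34 to 111) and 60.9 (28.6 to 130). Rab3da, with 36 UMIs in all, had 13.7 and 19.95 CPM in that cluster, and rab3db, with 39 UMIs, 6.83 and 12.8 CPM. Rab3b had 14 UMIs in all. Rab3c was at 4.22 and 3.24 CPM in cluster 6 and was its single member called lower, a call that rests on the neurons in the reference: without cluster 4 there its ratio in cluster 6 was 3.33 (0.447 to 24.7) in the low library, from 1 UMI, and 1.78 (0.689 to 4.58) in the high library, from 7 UMIs.

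Paralogues of the ER and Golgi Rabs differed in their clusters. Reads that match near-identical copies can be shared out or lost in counting, so the split between such pairs is uncertain to that extent. Rab6bb had 131 and 88.3 CPM in cluster 4, 31.7 times (20.97 to 48.0) and 24.9 times (16.4 to 37.9) the mean of the others. Rab6ba had 41.0 and 11.4 CPM there, from 36 and 8 UMIs. Rab6a, by contrast, was not called in the 4 named clusters and lay between 23.75 and 63.04 CPM in the low and between 28.6 and 78.4 CPM in the high library. Rab1bb had 74.0 and 74.1 CPM in cluster 4, 22.2 times (14.2 to 34.5) and 15.6 times (10.2 to 23.8) the mean of the others, and 0 and 2.78 CPM in cluster 6. Its paralogue rab1ab was called lower in cluster 4, at 123 and 141 CPM, 0.349 times (0.287 to 0.425) and 0.358 times (0.293 to 0.437) the mean of the others. Rab1ba, at 86.6 and 85.5 CPM in cluster 4, was also called higher there. Rab33a, of the Golgi, had 27.3 and 32.8 CPM in cluster 4 and 0 UMIs in cluster 6 of either library. Rab2a was at 717 and 700 CPM, near 3 times the mean of the others, and was present in every other cluster at 85.5 CPM or more.

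Rab39bb, whose human counterpart RAB39B is a gene of intellectual disability, had 95.7 and 101 CPM in cluster 4, 36.0 times (24.9 to 51.9) and 52.7 times (34.9 to 79.5) the mean of the others. Cluster 0 followed with 14.2 and 11.9 CPM. At 2500 UMIs per cell it was expected in 21.6% and 23.8% of cluster 4 cells, 3.74% and 3.04% of cluster 0 cells and 0.335% and 0.0804% of cluster 3 cells. Unthinned shares in cluster 4 were 31.5% and 35.8%. Rab39ba had 30.8 and 28.5 CPM and rab42a 36.4 and 44.2 CPM in cluster 4. Of the recycling endosome Rabs, rab11bb was called in cluster 4 at 11.4 (5.46 to 20.9) and 27.1 CPM (16.3 to 42.3). In cluster 2 rab11bb was at 9.19 (5.25 to 14.9) and 12.7 CPM (7.40 to 20.3). Rab11a and rab11ba were not called in the 4 named clusters, and rab15, of endocytic recycling, had 18.2 and 21.4 CPM in cluster 4. Rab5b, of early endosomes, had 31.9 and 31.3 CPM in cluster 4. In cluster 6 it was at 16.9 CPM in the low library, from 4 UMIs, and at 28.25 CPM in the high library. There the intervals of cluster 6 (21.6 to 36.3) and cluster 4 (19.6 to 47.5) overlapped. The remaining higher members were rab11fip3, rab11fip4a, rab40b, rab40c, rab41, rab30 and rab33ba, with ratios between 2.25 and 4.84. Of these, rab11fip4a was highest in cluster 0, at 13.8 and 12.95 CPM, against 7.97 and 9.97 CPM in cluster 4. Rab11fip3 was at 21.55 and 20.2 CPM in cluster 0, against 30.75 and 28.5 CPM in cluster 4.

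**Figure D5:**
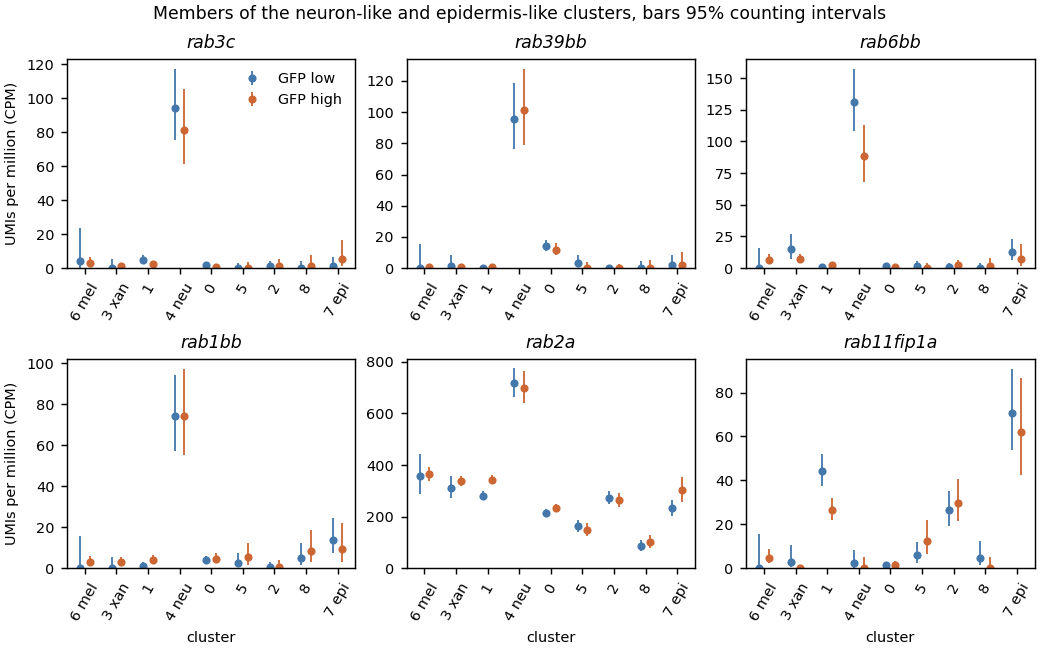
CPM of 5 members called higher in the neuron-like cluster and of rab11fip1a, called higher in the epidermis-like cluster (vertical axis, linear), in the 9 clusters of each library (horizontal axis), with exact Poisson 95% intervals. Rab3c, rab39bb, rab6bb and rab1bb stood at 74.0 to 131 CPM in cluster 4 and at 14.8 CPM or less in the other clusters, rab2a was present in every cluster, and rab11fip1a was also found in clusters 1 and 2.

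In the epidermis-like cluster the share of members called higher was near that of all genes, with 4 of 66 (6.06%, against 7.59%), and 17 were called lower (25.8%, against 12.9%). With genes at 0 UMIs ranked lowest, the median log2 ratio of the members was -0.67 and -0.89, beside -0.42 and -0.60 over all genes. Rab11fip1a, an adaptor of Rab11 and Rab25, had 70.6 and 61.8 CPM, 6.44 times (4.80 to 8.63) and 6.60 times (4.50 to 9.68) the mean of the others, and was also at 44.2 and 26.5 CPM in cluster 1. Rab43, a Golgi Rab, had 25.5 and 24.4 CPM in cluster 7. Its level in cluster 6 was 25.3 CPM in the low and 12.97 CPM in the high library. Rab44 had 13.9 and 15.0 CPM in cluster 7, beside 9.98 and 10.9 CPM in cluster 0, with overlapping intervals in both libraries. Rab11al passed the minimum only through cluster 7 and cluster 3.

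Below the minimum, rab25a and rab25b, Rabs of epithelial recycling in mammals, were seen almost only in cluster 7. Rab25a had 12 low and 2 high UMIs, every one of them in that cluster. Rab25b had 6 UMIs in all, 4 in cluster 7 of the low library and 1 in cluster 0 of each library. Rab42b had 31 UMIs, with 17.4 and 18.7 CPM in cluster 7 and at most 1.43 CPM elsewhere. Rab11fip1b had 17 UMIs, at 4.63 and 1.87 CPM in cluster 7. The 17 lower members included rab7a, rab9a, rab21, rab32a and rab34b, all members of the pigment cell set, whose cluster 6 levels enter the reference.

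Of the 66 members with the minimum, 48 were called in at least 1 of the 4 clusters and 18 in none. No matching share over all genes is given here, so these counts describe the members only. The 18 included rab10, rab35b and rab5ab, whose highest cluster was 1.80 to 4.21 times the lowest in either library. Rab10 lay between 170 and 348.5 CPM in the low and between 192 and 345 CPM in the high library. Rab35b, which acts at the plasma membrane and on endosomes, lay between 23.75 and 50.6 CPM and between 30.8 and 56.0 CPM. Rab11fip4b, another Rab11 adaptor, was not called in the 4 clusters and was highest in cluster 8, where muscle markers were highest, at 28.5 and 24.3 CPM. Rab11fip5a and rab3gap1 had 4 and 34 UMIs and stayed under the minimum. Rab12 was called lower in clusters 4 and 7 and rab18a in cluster 7. The others without a call, rab18b, rab1aa, rab14l, rab23, rab24, rab36, rab3gap2, rab4a, rab5aa and rab5if, were at 296 CPM or less in every cluster from 0 to 8.

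Genes of the Rab cycle and of melanosome transport were counted as a list of 69, of which 65 were in the gene lists and 48 had the minimum. The list was chosen with earlier results of these data known and holds the melanophore marker mlpha, so its counts are descriptions. In the melanophore-like cluster 23 of the 48 were called higher and 0 lower, where 9.96% and 10.9% of all genes were. In cluster 3 the counts were 21 and 3 (6.85% and 17.7% of all genes), in cluster 4 they were 6 and 16 (15.9% and 17.5%), and in cluster 7 they were 0 and 20 (7.59% and 12.9%). The exchange factor of Rab32 and Rab38 is the BLOC-3 complex of hps1 and hps4. Hps1 was at 54.8 and 37.5 CPM in cluster 6 and 48.7 and 49.6 CPM in cluster 3, and hps4 at 8.43 and 19.5 CPM in cluster 6 and 45.8 and 56.7 CPM in cluster 3, where it was called. The called genes further included 6 of BLOC-1 (bloc1s1, bloc1s2, bloc1s3, bloc1s4, bloc1s5 and bloc1s6) with dtnbp1a and snapin, and ap3d1, vps33a and vps41 of lysosome transport, each higher in both pigment cell clusters.

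The effectors of Rab27a differed between the pigment cell clusters by paralogue. Mlpha, a melanophilin, had 190 and 196 CPM in cluster 6 and 1.48 and 3.43 CPM in cluster 3. Mlphb had 0 UMIs in cluster 6 of either library, and 100 and 138 CPM in cluster 3. Myo5aa, the myosin Va that melanophilin binds, was present in both, at 198 and 218 CPM in cluster 6 and 185 and 236 CPM in cluster 3. Mlpha is also 1 of the 11 melanophore markers. In the neuron-like cluster the partners called higher included the Rab3 effectors rims1a, rims1b, rims2a and rims2b, and dennd5a. Rims1a had 28.5 and 39.9 CPM there and at most 5.79 CPM in clusters 6, 3 and 7.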

How the data were processed

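Single-cell RNA of the 2 sorted fractions was analysed from the deposited matrices, whose values are whole-number counts of UMIs for each gene in each cell. The authors made them with 10x Genomics 3′ chemistry and Cell Ranger 6.1.2, with GRCz11 named as the genome build in the submitters' processing notes, and filtered and clustered the cells with Seurat. The authors' cell table gave clusters and kept cells. The deposited aggregated matrix, whose counts of the high library had been downsampled, served as an alternative only.

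Members and lists were chosen with earlier results of these data known. UMIs were summed by cluster and library and scaled to CPM. Summed levels have exact Poisson intervals, ratios of 2 clusters or libraries exact conditional intervals, ratios to the mean of other clusters intervals by the delta method on the log scale, and shares exact Clopper-Pearson intervals, all at 95% and for counting error alone. For the call, a cluster without UMIs took a floor of 3 counts. Shares at equal depth are the expected share of cells with a UMI when each cell is thinned to 2500 UMIs. Shallower cells were left out, 0 to 132 per cluster in the low and 2 to 83 in the high library, of which 0 and 2 in cluster 6. Cluster 9 (19 low cells) was left out of the reference. Scrublet, run in scanpy 1.11.5 to score doublets, marked 5 and 6 barcodes, too few to be usable. None were removed, and an alternative dropped the 5 percent of barcodes scoring highest.

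Named with values were, for each of clusters 6, 3, 4 and 7, up to 10 members called higher by the smaller of their ratios, every member of the rab27, rab32, rab38, rab7 and rab3 groups, the members called lower in cluster 6, and partners called in the 4 clusters, of which examples are given. Members named beyond these, and the split of cluster 1 by melanin genes, were chosen after their values were seen. Alternatives were TMM factors from edgeR 4.0.16, totals without 107 mitochondrial and ribosomal protein genes, equal weight per cell, the aggregated matrix, each library alone, a minimum of 20 UMIs or none, all other cells pooled as the reference, 1000 UMIs for thinning, and 2 further references chosen after seeing the data. The ID of 59 of the 79 members carried the same symbol, in any letter case, in the reference name table, and symbols follow the deposited files. No coordinates or sequences are given. Python 3.11.15, numpy 2.4.6, scipy 1.17.1, pandas 2.3.3, matplotlib 3.10.9 and R 4.3.3 were used. The steps were tested on simulated data.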

Additional observations from a re-analysis of the deposited data

Results flagged for a closer look

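Rab3c stood out in cells that the comparisons leave out. In the 19 cells of cluster 9, which came from the low library alone, it had 11 UMIs in 9 cells, or 127.2 CPM (exact Poisson interval 63.5 to 228), against 7.60 CPM in clusters 0 to 8 of that library and 94.5 CPM in the neuron-like cluster. Rab1bb, at 104 CPM (47.6 to 198) from 9 UMIs, and rab39bb, at 92.5 CPM (40.0 to 182) from 8 UMIs, were also present there.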

How the results depend on the processing

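Of 105 alternative values of the main counts, 96 stayed within 1.5 times the count given in the report. The count of members lower in cluster 6 was 1, and was 0 with all other cells pooled as the reference, 17 in the high library alone, 2 in the low library alone, and 0 without cluster 4 in the reference. The count lower in cluster 3 was 6, and was 18 in the high library alone and 1 without cluster 4. The count higher in cluster 7 was 4, and 8 without cluster 4. The count lower in GFP high was 13, and 5 both with TMM scaling and with equal weight per cell. The references without cluster 4 and of non-pigment clusters alone were chosen after seeing the data. Of 396 alternative ratios of named members 391 stayed past 2-fold. Part of these could not do otherwise: a UMI minimum does not enter a ratio, and the call already required each library alone to pass. The minimum of 20 UMIs, no minimum, and each library alone thus gave 35 of 35 each by design. One ratio was reversed, that of rab3c in cluster 6 without cluster 4. Its log2 ratio was 1.73 in the low library, from 1 UMI, beside 0.83 in the high library, from 7 UMIs. TMM scaling moved the median log2 ratio of all genes by -0.32 and -0.20 in cluster 6, by -0.20 and -0.04 in cluster 3, by -0.09 and -0.12 in cluster 4 and by 0.13 in both libraries in cluster 7. Thinning to 1000 UMIs gave rab34b in 45.2% and 43.1% of cluster 6 cells. The 22 cells of cluster 6 in the low library limit its calls, where 1 UMI is 4.22 CPM. No paired analysis was possible because each fraction has 1 library.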
